A study of Mus musculus with 12 samples.

Results

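Transcript levels of 10 histone acetyltransferases and deacetylases were followed in mouse CD8+ T cells before activation, after activation, and after activation in lactate. The acetyltransferases were Ep300, Crebbp, Kat2a and Kat2b, and the deacetylases were Hdac1, Hdac2, Hdac3, Hdac7, Sirt1 and Sirt3. Each gene was taken as the row of the count table that carried its symbol, and the 10 genes are 10 of 13780 listed. All 10 passed the filter on low counts and were among the 13767 genes tested.

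The RNA-seq data held 12 libraries in 3 groups of 4. CD8+ T cells were selected with magnetic beads from spleens of wild-type C57BL/6J mice aged 8 to 12 weeks, and no gene was deleted or added in any group. Naïve cells were frozen untreated right after isolation. Both activated groups received anti-CD3/CD28 beads and IL-2 at 10 U/ml for 72 h, in plain media (called media) or with sodium lactate at 40 mM (called lactate). The control carried no added sodium salt, so lactate, sodium and osmolality cannot be told apart in these comparisons. The naïve libraries came from 4 donors and the activated ones from 5.

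Histone acetyltransferases move an acetyl group from acetyl-CoA to lysines of histone tails, which loosens chromatin and creates docking sites for bromodomain proteins. Deacetylases remove it. Class I enzymes (Hdac1, Hdac2, Hdac3) work with zinc inside large corepressor complexes, whereas class IIa enzymes such as Hdac7 have little activity of their own and leave the nucleus when phosphorylated, as happens after T cell receptor signalling. Sirtuins need NAD as a co-substrate, and Sirt3 acts on mitochondrial proteins. Several of these enzymes also act on proteins other than histones.

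Library depth ranged from 14726904 to 21478137 counted reads. Markers of CD8+ T cells were high in every library, with a summed level of 2260 CPM or more, CPM being counts scaled to library size. The naïve libraries also carried B cell markers, at 692 to 1665 CPM against at most 19.9 CPM in the activated libraries, and myeloid markers, at 897 to 2665 CPM against at most 107 CPM. All 10 B cell markers and all 10 myeloid markers were in the table. None of the B cell markers was at 0 throughout a group, and 1 myeloid marker was at 0 in all media and in all lactate libraries. Red cell markers reached 3495 CPM in naïve cells and at most 1.90 CPM after activation. Library numbers fell into a low run of 8 libraries and a high run of 4. Naïve replicate 4, the only naïve library of the high run, stood apart, and results that rest on it are given with and without it.

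Hdac2 and Kat2b were the members that passed the test between lactate and media, in opposite directions. The sequence around the start of each is given here to place both genes. Each window runs 5′ to 3′ over 300 bases, from 250 bases before the annotated start to 50 bases after it (RefSeq, GRCm38.p6). Capitals mark the match on the other strand to a GC box (GGGCGG) in Hdac2, at chr10:36974294-36974593 on the plus strand, and to a CCAAT box (CCAAT) in Kat2b, at chr17:53566721-53567020 on the plus strand.
Hdac2: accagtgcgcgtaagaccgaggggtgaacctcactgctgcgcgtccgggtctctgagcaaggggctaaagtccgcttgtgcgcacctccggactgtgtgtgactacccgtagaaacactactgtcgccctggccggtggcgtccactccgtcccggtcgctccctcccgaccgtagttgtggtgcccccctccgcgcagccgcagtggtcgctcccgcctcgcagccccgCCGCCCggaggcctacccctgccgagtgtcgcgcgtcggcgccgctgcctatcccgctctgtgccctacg
Kat2b: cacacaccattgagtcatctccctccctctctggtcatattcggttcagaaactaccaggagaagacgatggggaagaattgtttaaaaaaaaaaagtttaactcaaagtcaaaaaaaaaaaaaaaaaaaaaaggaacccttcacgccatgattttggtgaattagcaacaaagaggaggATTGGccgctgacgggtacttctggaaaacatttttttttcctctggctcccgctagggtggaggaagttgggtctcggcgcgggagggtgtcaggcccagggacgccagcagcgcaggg
Of the 10 members, 8 had such a window. The GC box was in 4 of the 8, against 35.7% of 32851 windows of all genes, and the CCAAT box in 1, against 37.4%. An E-box (CACGTG) was in 1 window, against 7.15% of all windows. That was the Sirt1 window, which lies 42669 bases from the start of Sirt1 in the annotation used for its coordinates. The Kat2b start in that annotation lies inside the printed Kat2b window, 110 bases from the start used for the window. A match is only a description of these letters.

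Activation in plain media moved most members. Against naïve cells, 4 of the 10 were called higher in media (Hdac1, Hdac3, Hdac7 and Sirt3) and 4 lower (Ep300, Crebbp, Kat2b and Sirt1). Calls rest on the quasi-likelihood model of edgeR, with the adjusted p no higher than 0.01. Of all tested genes, 28.5% were called higher and 29.0% lower. The media and naïve libraries did not overlap in CPM for 8 of the 10 members, against 61.2% of all genes. The median log2 fold change of the members was −0.16, against −0.03 over all tested genes. In these bulk libraries, fewer cells of a type and less RNA per cell cannot be told apart. The B cell, myeloid and red cell markers of the naïve libraries fell in the same comparison, and their part in these differences was not tested.

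**Figure D1:**
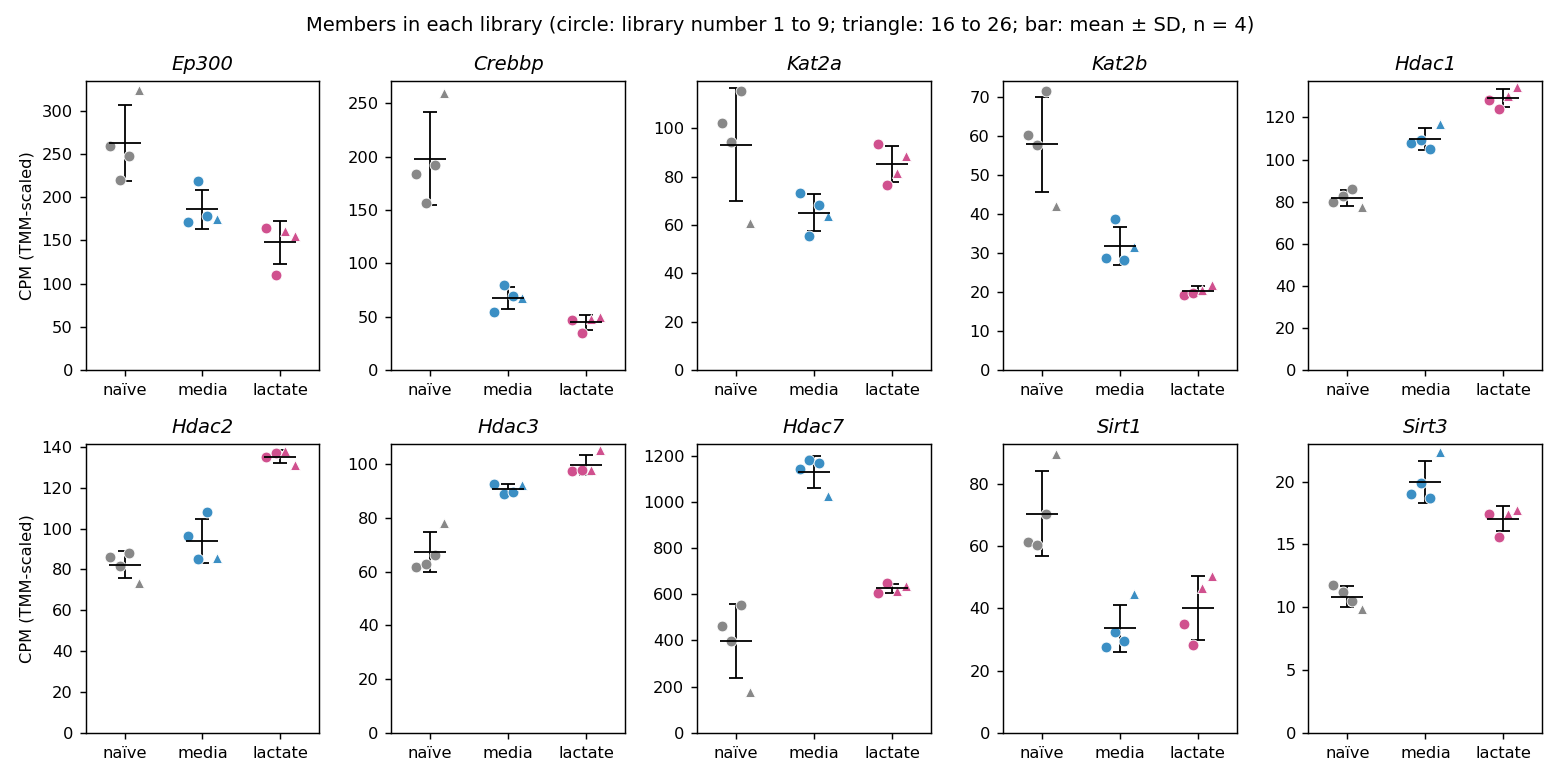
Level of each member in CPM (vertical axis from 0, TMM-scaled) in the 12 libraries by group. Circles are the low run of library numbers and triangles the high run, and bars give the mean ± SD (n = 4); Hdac7 is at 1026 CPM or more in all media libraries and at most 647 CPM in the others.

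Ep300 and Crebbp encode the paralogous coactivators p300 and CBP, which acetylate histone H3 and H4 and are recruited by many transcription factors. Ep300 (ENSMUSG00000055024, chr15:81585351-81652077, plus strand, GRCm38) was at 259.8, 220.2, 248 and 324 CPM in naïve replicates 1 to 4. In media it was at 172, 219, 178 and 175 CPM, and in lactate at 164, 111, 161 and 155 CPM. The 3 groups followed each other downwards without overlap, and media replicate 2 came within about 1 CPM of the lowest naïve library. The log2 fold change was −0.50 (SE 0.15) from naïve to media, with an adjusted p of 0.00944 from edgeR. Without naïve replicate 4 the fold change was −0.39 and the adjusted p 0.0230, so this call was lost, as it was without naïve replicate 1, media replicate 1, 3 or 4, or lactate replicate 1 (adjusted p of 0.0115 to 0.0296). From media to lactate Ep300 changed by −0.33 on the log2 scale (SE 0.15, adjusted p = 0.0937 from edgeR), which did not pass the test.

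Crebbp (ENSMUSG00000022521, chr16:4081328-4213997, minus strand) fell more deeply. It was at 184, 157, 192 and 259.7 CPM in the naïve libraries, at 54.7, 79.6, 69.1 and 68.0 CPM in media, and at 46.9, 34.7, 47.8 and 49.8 CPM in lactate. No 2 groups overlapped. Crebbp was 2.92-fold lower in media than in naïve cells (log2 fold change −1.55, SE 0.17, adjusted p = 5.06e-06 from edgeR), and 4.42-fold lower in lactate than in naïve cells (adjusted p = 2.64e-07 from edgeR). Its difference between lactate and media was −0.60 on the log2 scale (SE 0.17) and missed the threshold narrowly (adjusted p = 0.0135 from edgeR). Across the alternative settings this adjusted p ran from 0.00210 to 0.0469. Crebbp was called lower in lactate under 11 of 25 settings. These included a threshold of 0.05 and fits without naïve replicate 2, naïve replicate 4 or media replicate 1. Both Ep300 and Crebbp were thus lowest with lactate, and Crebbp stood furthest below its naïve level of all 10 members.

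Kat2a (GCN5) and Kat2b (PCAF) are alternative catalytic subunits of the SAGA and ATAC coactivator complexes and acetylate mainly histone H3. Kat2a (ENSMUSG00000020918, chr11:100704746-100712465, minus strand) was at 102, 94.4, 115 and 60.8 CPM in naïve cells. It was at 73.2, 55.4, 68.5 and 63.6 CPM in media and at 76.7 to 93.6 CPM in lactate. All lactate libraries lay above all media libraries, and naïve replicate 4 lay among the media libraries. Kat2a passed no test in the main fit: the log2 fold change was −0.52 from naïve to media (adjusted p = 0.0147 from edgeR) and 0.38 from media to lactate (SE 0.17, adjusted p = 0.0842). The comparison of media with naïve cells passed under 5 of 24 alternative settings, including a threshold of 0.05. It also depended on naïve replicate 4. Without that library the fold change was −0.68 with an adjusted p of 0.000143 from edgeR, and within the high run, which holds 1 naïve and 1 media library, the difference was 0.06 against −0.67 within the low run.

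Kat2b (ENSMUSG00000000708, chr17:53566861-53672720, plus strand) was at 60.1, 57.6, 71.4 and 42.1 CPM in naïve cells. It was at 28.8, 38.7, 28.1 and 31.4 CPM in media, and at 19.2, 19.9, 20.4 and 21.9 CPM in lactate. The groups did not overlap, and the lactate libraries lay within 3 CPM of each other. Kat2b fell 1.82-fold from naïve cells to media (log2 fold change −0.86, SE 0.15, adjusted p = 0.00027 from edgeR). It was a further 1.56-fold lower with lactate than in media (−0.64, SE 0.15, adjusted p = 0.00585). That second call was lost without media replicate 2, without media replicate 4 and without any 1 of the 4 lactate libraries, with adjusted p of 0.0108 to 0.0214 from edgeR. It was also lost with limma voom (adjusted p = 0.0115) and with a block by title number (0.0127), and kept with the donor as a block (−0.53, adjusted p = 0.00405). The fit with the donor as a block left out the naïve libraries, here and below.

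Of the class I deacetylases, Hdac1 and Hdac3 rose on activation in media, while Hdac2 did not pass in that comparison. Hdac1 and Hdac2 are close paralogues that pair in the NuRD, Sin3 and CoREST complexes. Hdac1 (ENSMUSG00000028800, chr4:129516104-129542713, minus strand) was at 79.7, 82.8, 86.2 and 77.6 CPM in naïve cells, at 108, 109, 105 and 117 CPM in media, and at 128, 124, 130.1 and 134 CPM in lactate. The 3 groups stood apart as steps, with a spread of 12 CPM or less inside each. The log2 fold change was 0.43 (SE 0.07) from naïve to media, with an adjusted p of 0.00018 from edgeR. From media to lactate it was 0.23 (SE 0.07, adjusted p = 0.0204), which did not pass.

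Hdac2 (ENSMUSG00000019777, chr10:36974544-37001889, plus strand) was called at the other step, but a difference between the 2 genes did not pass. The exact permutation test of their ratio gave p = 0.114 between media and naïve cells and 0.0571 between lactate and media. Hdac2 was at 86.2, 81.6, 87.9 and 73.4 CPM in naïve cells and at 96.1, 85.3, 108 and 85.5 CPM in media, and these groups overlapped. In lactate it was at 135, 137, 138 and 131 CPM, above every other library. Hdac2 rose 1.44-fold from media to lactate (log2 fold change 0.53, SE 0.09, adjusted p = 0.000976 from edgeR), while its change from naïve to media was 0.19 (SE 0.09, adjusted p = 0.0924). The call between lactate and media was made under all 25 alternative settings, with adjusted p of 4.04e-06 to 0.00491.

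Hdac3 (ENSMUSG00000024454) is the catalytic subunit of the NCoR and SMRT corepressor complexes. It was at 61.7, 62.8, 66.3 and 78.1 CPM in naïve cells, at 92.4, 88.9, 89.6 and 92.4 CPM in media, and at 97.6, 97.9, 97.9 and 105 CPM in lactate. In CPM the naïve libraries lay below all activated ones, and lactate lay above media by a small margin. The length-scaled levels given further below did not show that margin. Hdac3 rose from naïve to media by 0.43 on the log2 scale (SE 0.09, adjusted p = 0.000596 from edgeR). Without naïve replicate 2 that adjusted p was 0.0104. Its difference between lactate and media was 0.13 (SE 0.08, adjusted p = 0.233).

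Hdac7, the class IIa enzyme known for high expression in the T cell lineage, made the largest move in CPM. Hdac7 (ENSMUSG00000022475, chr15:97792664-97844502, minus strand) was at 464, 399.8, 553 and 176 CPM in naïve cells, at 1141, 1182, 1167 and 1026 CPM in media, and at 606, 647, 613 and 634 CPM in lactate. The lactate libraries fell between the others, above every naïve library and below every media library. Hdac7 was 2.84-fold higher in media than in naïve cells (log2 fold change 1.504, SE 0.25, adjusted p = 0.000172 from edgeR). In lactate it was 1.81-fold lower than in media (−0.85, SE 0.25), but the adjusted p of 0.0160 did not pass. The naïve libraries share in the estimate of the spread, and naïve replicate 4 held far less Hdac7 than the other 3. Without that library the difference between lactate and media was −0.85 with an adjusted p of 5.62e-05 from edgeR. Without naïve replicate 3 it was −0.86 (adjusted p = 0.00966). With the donor as a block, a fit that also left out all naïve libraries, it was −0.81 with an adjusted p of 0.000596. Between lactate and naïve cells Hdac7 differed by 0.65 (SE 0.25, adjusted p = 0.0301 from edgeR), and without naïve replicate 4 by 0.40 (adjusted p = 0.00458). Within the low run the difference from naïve to media was 1.31, and within the high run, with 1 library on each side, it was 2.54.

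The 2 sirtuins moved in opposite directions on activation. Sirt1, the main nuclear sirtuin (ENSMUSG00000020063, chr10:63319005-63381704, minus strand), was at 61.5, 60.3, 70.3 and 89.7 CPM in naïve cells. It was at 27.7, 32.4, 29.6 and 44.7 CPM in media and at 35.1, 28.4, 46.6 and 50.5 CPM in lactate. All activated libraries lay below all naïve ones, and media and lactate overlapped. Sirt1 was 2.10-fold lower in media than in naïve cells (log2 fold change −1.07, SE 0.21, adjusted p = 0.00054 from edgeR). Its difference between lactate and media was 0.26 (SE 0.21, adjusted p = 0.349), the only one of the 10 with overlapping groups in CPM. In each group its highest library came from the high run, and within the runs the difference between lactate and media was 0.08 and 0.12.

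Sirt3 (ENSMUSG00000025486, chr7:140863666-140882309, minus strand) was the least abundant member. It was at 11.8, 11.2, 10.5 and 9.86 CPM in naïve cells, at 19.0, 19.9, 18.7 and 22.4 CPM in media, and at 17.4, 15.6, 17.4 and 17.7 CPM in lactate. The 3 groups did not overlap, with media highest. Sirt3 rose 1.85-fold from naïve to media (log2 fold change 0.88, SE 0.11, adjusted p = 1.92e-05 from edgeR), and its difference between lactate and media was −0.23 (SE 0.11, adjusted p = 0.121). Of the exon bases of Sirt3, 12.7% also belong to Psmd13 or Ric8a on the opposite strand, and whether the counting used the strand is not stated.

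**Figure D2:**
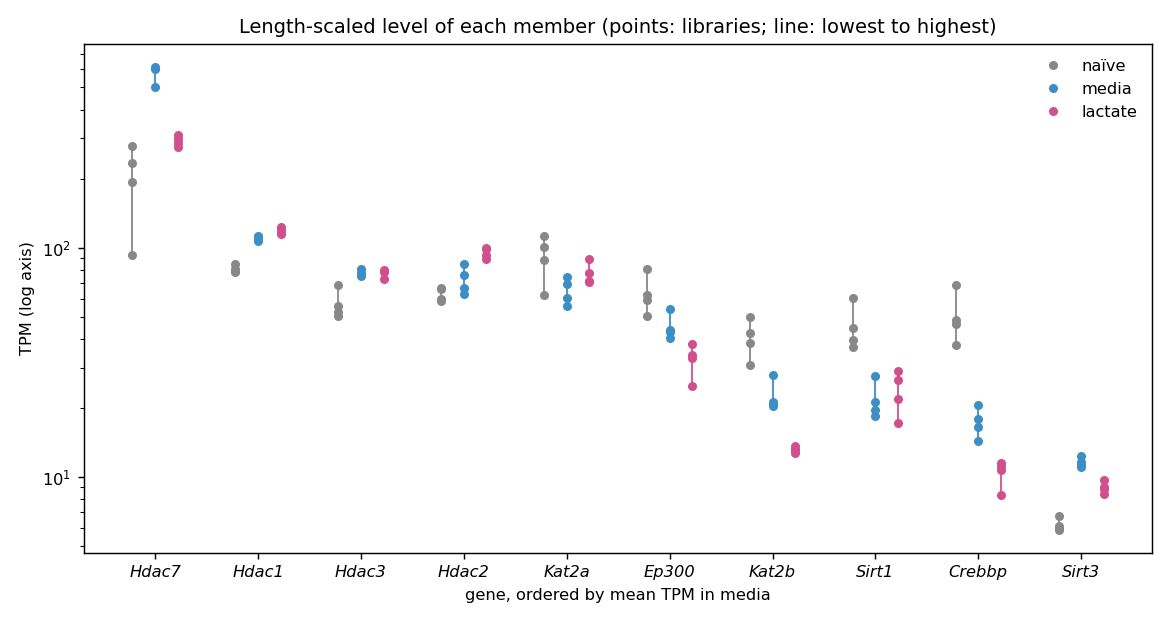
Length-scaled level of each member (vertical axis, TPM, log scale), with the genes ordered by mean TPM in media. Points are the 4 libraries of a group and lines run from the lowest to the highest; Hdac7 leads in each group by mean, at 200 TPM in naïve, 581 TPM in media and 292 TPM in lactate.

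Levels were compared between genes only as TPM, a unit that divides each count by gene length and scales every library to the same sum. In naïve cells the mean order was Hdac7 (199.8 TPM), Kat2a (91.0), Hdac1 (80.7), Ep300 (63.2), Hdac2 (62.7), Hdac3 (56.7), Crebbp (50.2), Sirt1 (45.3), Kat2b (40.4) and Sirt3 (6.18). Neighbours in this order overlapped between libraries all the way from Hdac7 to Kat2b, though Hdac7 with Kat2a, Kat2a with Hdac1, Hdac1 with Ep300, Hdac2 with Hdac3 and Hdac3 with Crebbp did so only through naïve replicate 4. Sirt3 lay below every other member in every naïve library. In media the order was Hdac7 (581 TPM), Hdac1 (110.3), Hdac3 (77.7), Hdac2 (72.7), Kat2a (65.0), Ep300 (45.2), Kat2b (22.6), Sirt1 (21.7), Crebbp (17.4) and Sirt3 (11.6). Hdac7 and Hdac1 each stood clear of the next gene in media, whereas Hdac3, Hdac2 and Kat2a overlapped in turn. Crebbp, Kat2b and Sirt1 overlapped as well, and Sirt3 stood clear of Crebbp.

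With lactate the mean order was Hdac7 (292 TPM), Hdac1 (118), Hdac2 (95.4), Hdac3 (77.5), Kat2a (77.2), Ep300 (32.6), Sirt1 (23.6), Kat2b (13.2), Crebbp (10.4) and Sirt3 (8.99). Hdac7, Hdac1 and Hdac2 were each clear of the next gene. Hdac3 and Kat2a overlapped, as did Ep300 and Sirt1, while Kat2b stood clear of both Sirt1 above it and Crebbp below it. Crebbp and Sirt3 overlapped. Hdac7 made up 28.0% ± 8.70 (SD, n = 4) of the summed TPM of the 10 members in naïve cells, 56.6% ± 1.82 in media and 39.0% ± 1.70 in lactate. The 4 acetyltransferases summed to 245 ± 22.8 TPM in naïve cells, 150.2 ± 8.28 TPM in media and 133 ± 14.3 TPM in lactate (SD, n = 4). Hdac1, Hdac2 and Hdac3 together summed to 200.2 ± 9.17, 261 ± 9.71 and 291 ± 9.56 TPM. These sums are descriptions and were not tested. TPM was not TMM-scaled, unlike CPM, so differences of levels and sums between groups depend on the unit. Hdac3 had means of 90.8 CPM in media and 99.7 CPM in lactate, but 77.7 and 77.5 TPM. Kat2a had means of 65.2 and 85.1 CPM, but 65.0 and 77.2 TPM.

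Lactate during activation was the comparison the study was built on. Of the 10 members, 1 was called higher with lactate than in media, Hdac2, and 1 lower, Kat2b, by the same edgeR test and threshold. Over all tested genes, 13.9% were called higher and 11.1% lower, so the share of members called was close to that of all genes. The libraries of the 2 groups did not overlap in CPM for 9 of the 10 members, against 44.7% of all genes, and no member differed by 2-fold. In TPM, Hdac3 overlapped as well (75.1 to 80.9 in media, 73.1 to 79.8 in lactate). So did Kat2a (55.8 to 74.7 in media, 71.0 to 89.1 in lactate). The median log2 fold change was −0.05, against −0.0016 over all tested genes. The summed CD8 T cell markers were at 2797 to 3406 CPM in lactate and 3562 to 4362 CPM in media, without overlap, with Cd3d, Cd3e and Cd3g called lower. The means of Cd8a, Trac and Cd5 were lower too, and Cd8a was not called (adjusted p = 0.672 from edgeR). Those of Cd8b1 (426 CPM in media, 519 CPM in lactate) and Cd2 (225 and 320 CPM) were higher. CD4 T cell markers were at 83.7 to 96.6 and 48.0 to 60.7 CPM, mostly from Zbtb7b, while Cd4 itself had means of 0.541 and 0.348 CPM. B cell markers were at 7.02 to 8.33 and 10.8 to 19.9 CPM. Myeloid markers were at 91.5 to 107 and 72.7 to 95.8 CPM, mostly from Cst3. The means of Cd68, Mpeg1, Itgam, Fcgr3 and Csf1r were lower in lactate than in media. Those of Cst3, Cd14, Adgre1 and Lyz2 were higher, the last 3 at most 0.236 CPM. The part of these markers in the differences was not tested.

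The direction between lactate and media was the same in both runs of library numbers for all 10 members. In the low run, with 3 media and 2 lactate libraries, the difference of mean log2 CPM was −0.48 for Ep300, −0.73 for Crebbp, 0.38 for Kat2a and −0.69 for Kat2b. In the high run, with 1 media and 2 lactate libraries, these were −0.15, −0.48, 0.42 and −0.57. For the deacetylases the low run gave 0.23 for Hdac1, 0.50 for Hdac2, 0.11 for Hdac3, −0.89 for Hdac7 and −0.22 for Sirt3. The high run gave 0.18, 0.65, 0.14, −0.72 and −0.35. The counts of members called depended on naïve replicate 4. Without it, 3 members were called higher with lactate (Hdac1, Hdac2 and Kat2a) and 3 lower (Crebbp, Kat2b and Hdac7). Calls over all tested genes rose as well, to 2552 higher and 2293 lower, from 1917 and 1534 with all libraries.

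**Figure D3:**
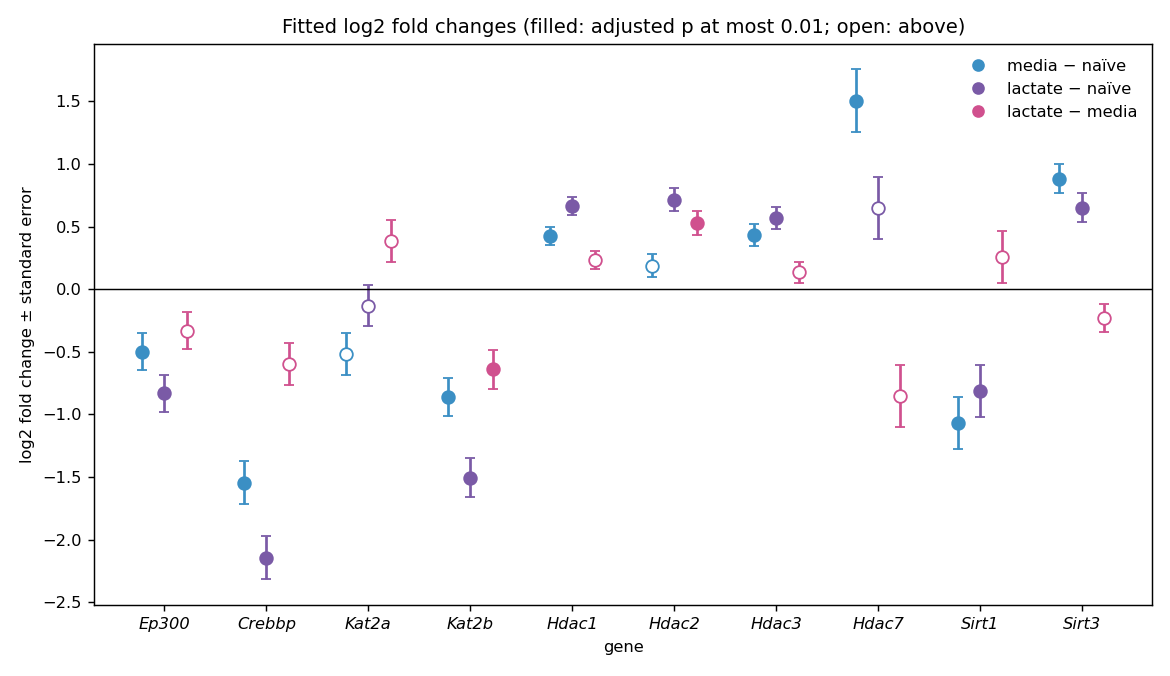
Log2 fold change with its standard error (vertical axis) for each member in the 3 comparisons. Filled points passed the edgeR test at the 0.01 threshold and open points did not; between lactate and media only Hdac2 (0.53) and Kat2b (−0.64) are filled.

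Lactate against naïve cells shares its libraries with both other comparisons, so its values stand beside theirs and are not further evidence. In it, 4 members were called higher (Hdac1, Hdac2, Hdac3 and Sirt3) and 4 lower (Ep300, Crebbp, Kat2b and Sirt1), against 33.0% and 32.0% of all tested genes. Groups did not overlap in CPM for 9 of the 10 members, all but Kat2a, against 67.8% of all genes. The log2 fold change from edgeR was −0.83 for Ep300, −2.14 for Crebbp, −1.51 for Kat2b and −0.81 for Sirt1. It was 0.66 for Hdac1, 0.72 for Hdac2, 0.57 for Hdac3 and 0.65 for Sirt3. Sirt1 lost this call without lactate replicate 1 (−0.75, adjusted p = 0.0120 from edgeR) and without lactate replicate 2 (−0.67, adjusted p = 0.01004). Kat2a differed by −0.13 (SE 0.17, adjusted p = 0.488), and its difference was −0.29 within the low run but 0.48 within the high run, where 1 naïve library stands on the other side.

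Because both genes of a paralogue pair are read in the same library, their ratio needs no scaling between libraries. The ratio of Ep300 to Crebbp, in TPM, had a mean of 1.27 in naïve cells, 2.61 in media and 3.12 in lactate (geometric means, n = 4). The naïve values, 1.18 to 1.34, lay below all media values, 2.44 to 2.98. The log2 ratio differed by 1.04 (SE 0.08) between media and naïve cells and by 0.26 (SE 0.08) between lactate and media. The exact permutation test gave p = 0.0286 for the first, the smallest that 4 against 4 libraries allow, and p = 0.0571 for the second.

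The ratio of Kat2a to Kat2b was 2.02 to 2.38 in naïve cells, 2.00 to 3.56 in media and 5.40 to 6.81 in lactate. Lactate stood above both other groups, and media replicate 2 was below every naïve library. The log2 ratio differed by 1.02 (SE 0.20) between lactate and media (exact permutation p = 0.0286) and by 0.37 (SE 0.20) between media and naïve cells (p = 0.143). The ratio of Hdac1 to Hdac2 was 1.20 to 1.37 in naïve cells, 1.26 to 1.78 in media and 1.17 to 1.33 in lactate, and all groups overlapped. Its log2 difference between lactate and media was −0.30 (SE 0.12, exact permutation p = 0.0571). Over the 9 two-sided tests, the smallest adjusted p of the exact permutation test was 0.0643, so no ratio passed 0.05 after Benjamini-Hochberg adjustment.

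**Figure D4:**
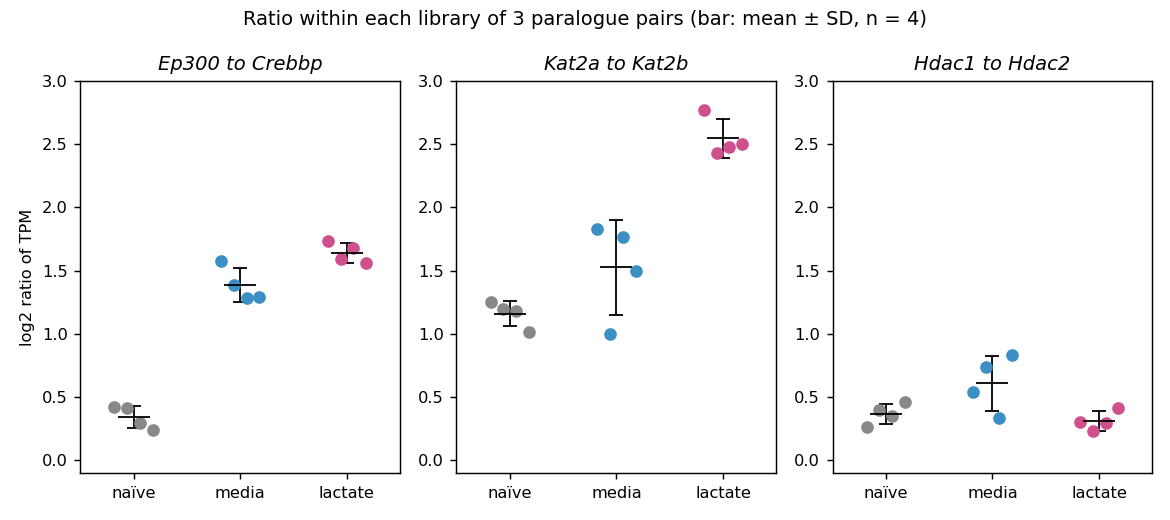
Log2 ratio of TPM within each library (vertical axis) for 3 paralogue pairs by group, with bars at the mean ± SD (n = 4). The Kat2a to Kat2b ratio in lactate, 2.43 to 2.77 on the log2 scale, lies above all media and naïve libraries.

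Partners, relatives and co-substrate enzymes of the 10 members were read from lists. Over all tested genes, 13.9% were called higher and 11.1% lower with lactate than in media. From naïve cells to media these shares were 28.5% and 29.0%. Without naïve replicate 4, genes called between lactate and media numbered 2552 higher and 2293 lower, in place of 1917 and 1534. Among 19 other acetyltransferases, 1 was called higher with lactate than in media and 3 lower (Kat6a, Kat6b and Ncoa2). Without naïve replicate 4 these counts were 2 and 6. The median log2 fold change of the list was −0.18. Kat14, the acetyltransferase of the ATAC complex, rose from 29.4 to 48.4 CPM (log2 fold change 0.72, adjusted p = 0.00159 from edgeR), and 14.8% of its exon bases overlap Pet117 on the same strand. Kat6b, of the MYST family, fell from 38.8 to 21.99 CPM (−0.82, adjusted p = 0.000116). From naïve cells to media, 6 were higher and 7 lower. Esco2, which acetylates cohesin in S phase, rose from 6.20 to 72.9 CPM (3.56), and its paralogue Esco1 fell from 87.7 to 39.5 CPM (−1.15).

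Among 12 other deacetylases, 0 were called higher with lactate by edgeR and 3 lower, against 13.9% and 11.1% of all tested genes. The 3 were all of class IIa, the class of Hdac7. The likelihood ratio test, DESeq2 and limma voom also called 0 higher, and 1 was higher at an unadjusted p under 0.05. Hdac4 was at 57.2 ± 4.82 CPM in media and 32.7 ± 2.68 CPM in lactate (−0.81, SE 0.14, adjusted p = 0.000891 from edgeR). Hdac5 fell from 159.5 to 90.0 CPM (−0.83, adjusted p = 0.000756). Hdac9 had 4 to 16 reads in the media libraries and 0 or 1 in the lactate libraries, too few for a fold change, and its call was made under 15 of 24 other settings. Hdac4 and Hdac9 are named here after their values were seen. In naïve cells Hdac9 was at 13.1 CPM, with 115 to 333 reads per library, where the B cell and myeloid markers were also higher. Activation raised 3 of the 12 and lowered 3, against 28.5% and 29.0% of all tested genes. Sirt6, a nuclear sirtuin, rose from 21.3 to 50.1 CPM (1.23).

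Kat2a and Kat2b work inside SAGA and ATAC. Of 22 tested subunits, 7 were called higher with lactate than in media (Tada2a, Sgf29, Taf5l, Taf6l, Taf10, Zzz3 and Wdr5) and 2 lower (Supt20 and Atxn7), with a median log2 fold change of 0.13. Without naïve replicate 4, 8 were higher and 4 lower. Over all tested genes, 13.9% were called higher and 11.1% lower in the main fit. Tada2a, the adaptor of ATAC, was at 9.27 CPM in naïve cells, 16.1 CPM in media and 32.6 CPM in lactate (1.02 between lactate and media, adjusted p = 0.00017 from edgeR). Supt20, of the SAGA core, fell from 166 to 91.7 CPM (−0.86, adjusted p = 6.7e-05), and 11.8% of its exon bases overlap genes on the opposite strand. From naïve cells to media 2 subunits rose and 5 fell, against 28.5% and 29.0% of all tested genes. Supt3, of the SAGA core, rose from 10.9 to 58.3 CPM (2.42). Tada2b, the SAGA counterpart of Tada2a, fell from 37.6 to 11.7 CPM (−1.68).

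Hdac1 and Hdac2 are shared by several complexes. Of 32 tested subunits, 5 were higher with lactate (Sap18, Rbbp4, Rbbp7, Mbd2 and Mbd3) and 4 lower (Arid4a, Chd3, Rcor1 and Phf21a), and the median was −0.03. The balance depended on the fit, with 3 higher and 6 lower with the donor as a block, and 6 higher and 7 lower without naïve replicate 4. Over all tested genes, 13.9% were called higher and 11.1% lower in the main fit. Within NuRD the called subunits moved both ways. Mbd3 rose from 111 to 184 CPM (0.72, adjusted p = 0.000118 from edgeR), and Chd3, a chromatin remodeller, fell from 281 to 155 CPM (−0.86, adjusted p = 0.000767). Activation in media raised 7 subunits and lowered 5, against 28.5% and 29.0% of all tested genes. Rcor2, a scaffold of CoREST type, rose from 2.97 to 20.5 CPM (2.78), and Arid4a, of the Sin3 complex, fell from 185 to 75.7 CPM (−1.28).

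Of 22 tested partners of Hdac3 and of class IIa enzymes, 5 were higher with lactate and 4 lower, with a median of −0.08. Without naïve replicate 4 the counts were 5 and 7. Over all tested genes, 13.9% were called higher and 11.1% lower in the main fit. The 5 partners that rose were Ywhab, Ywhae, Ywhag, Ywhah and Ywhaz, 14-3-3 proteins that hold phosphorylated class IIa deacetylases in the cytoplasm among many other roles. Another 14-3-3 gene of the list, Ywhaq, was at 46.6 CPM in media and 47.4 CPM in lactate (0.02, adjusted p = 0.867 from edgeR), and Ywhae did not pass with the donor as a block (adjusted p = 0.0141). Ywhab rose from 129 to 273 CPM (1.08, adjusted p = 5.56e-05 from edgeR). The 4 that fell were Ncor1, Mef2a, Rfxank and Prkd2, and Mef2a, a transcription factor bound by class IIa enzymes, fell from 125 to 68.0 CPM (−0.88, adjusted p = 0.000131). On activation 4 partners rose and 8 fell, against 28.5% and 29.0% of all tested genes. Ywhae rose from 248 to 653 CPM (1.40), and Mef2c fell from 66.3 to 0.453 CPM, or 4 to 10 reads per media library. Mef2c is also made by B cells and myeloid cells, whose markers fell in the same comparison, and their part was not tested.

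**Figure D5:**
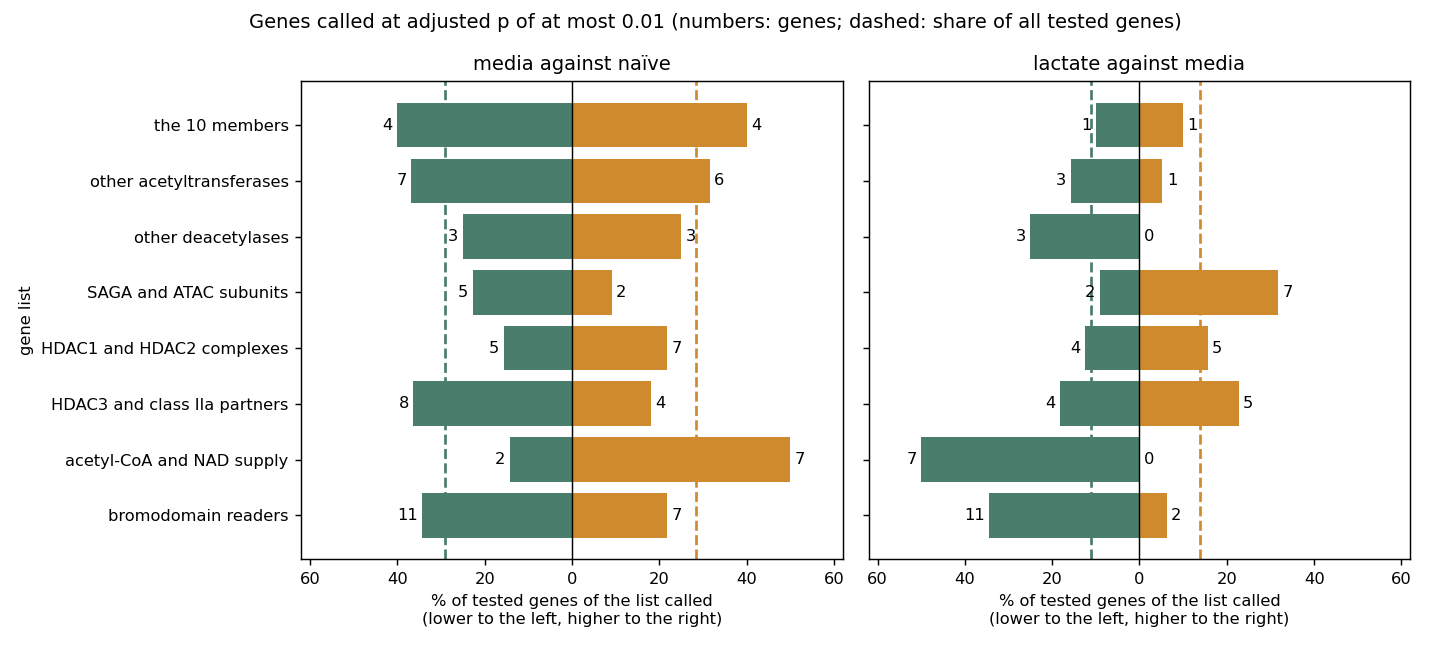
Share of the tested genes of each list that were called (horizontal axis, percent; lower to the left, higher to the right) for media against naïve and lactate against media. Numbers beside bars count genes and dashed lines are the shares over all tested genes; the acetyl-CoA and NAD list has 7 genes lower and 0 higher with lactate.

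Acetyl-CoA feeds the acetyltransferases and NAD feeds the sirtuins. Of 14 tested genes listed for the supply or use of these co-substrates, 0 were called higher with lactate by edgeR and 7 lower. The 7 were Acss1, Acss2, Nampt, Nmnat2, Nmrk1, Qprt and Cd38. Over all tested genes, 13.9% were called higher and 11.1% lower. At an unadjusted p under 0.05, 0 of the 14 were higher, also by the likelihood ratio test, DESeq2 and limma voom. The median log2 fold change was −0.35. The other 7 were not called, among them Acly (0.005, adjusted p = 0.988 from edgeR) and Nmnat1 (0.08, adjusted p = 0.745). Nmnat2, which makes NAD from its mononucleotide, was at 5.21 CPM in naïve cells, 18.4 CPM in media and 3.73 CPM in lactate (−2.30 between lactate and media, adjusted p = 0.00222 from edgeR). Qprt did not pass with the donor as a block (adjusted p = 0.0164 from edgeR). Cd38, and Parp1 among the genes not called, consume NAD and do not make it. Activation in media raised 7 of the 14 and lowered 2, against 28.5% and 29.0% of all tested genes. Without naïve replicate 4 it lowered 4. Slc25a1, the mitochondrial citrate carrier, rose from 26.4 to 108 CPM (2.03), and Qprt, which feeds NAD synthesis from quinolinate, fell from 16.1 to 9.43 CPM (−0.77).

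Acetylated lysines are read by bromodomain and YEATS proteins. Of 32 tested readers, 2 were higher with lactate (Baz1a and Mllt1) and 11 lower (Brd1, Brd8, Brd9, Baz2b, Atad2b, Smarca2, Trim24, Phip, Brwd1, Brwd3 and Zmynd11), with a median of −0.38. Without naïve replicate 4 these counts were 3 and 16. Over all tested genes, 13.9% were called higher and 11.1% lower in the main fit. Mllt1, a YEATS reader of the super elongation complex, was at 94.3 CPM in naïve cells, 58.9 CPM in media and 105 CPM in lactate (0.83 between lactate and media, adjusted p = 0.00027 from edgeR). Brwd3 fell from 45.5 to 23.1 CPM (−0.98, adjusted p = 0.000851). On activation 7 readers rose and 11 fell, against 28.5% and 29.0% of all tested genes. Brdt, a BET family reader best known from testis, rose from 2.90 to 10.2 CPM (1.81), and Cecr2 was at 74 to 269 reads in the naïve libraries and 0 to 6 in media.

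Across the 12 libraries, the tested genes most like each member in log2 CPM were named by Pearson's r, as a description. The points share the 3 groups, the libraries and their scaling. Crebbp was most like Stk4 (0.995) and Epc2 (0.993), and Epc2 belongs to the NuA4 acetyltransferase complex. Ep300 was most like Mon2 (0.977) and Chd8 (0.976). Kat2b was most like Ripor2 (0.995) and Slc28a2 (0.993), and Kat2a like Pkp4 (0.944) and Rbck1 (0.943), the lowest values of the 10. Hdac7 was most like Jak3 (0.993), the kinase of the common cytokine receptor chain, and Rgs11 (0.991). Hdac1 was most like Ttll1 (0.989) and Hmga1 (0.988), and Hdac3 like March9 (0.991) and Plrg1 (0.990). Pbdc1 (0.983) was among the genes most like Hdac2. Sirt1 was most like Vps11 (0.981) and Supt5 (0.978), and Sirt3 like Ciao2a (0.990) and Gucy1a1 (0.985).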

How the data were processed

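The authors, per the paper's methods and the processing notes, converted base calls with bcl2fastq 2.20.0.422, aligned single-end reads to mm10 (GRCm38) with STAR 2.7.5b, discarded PCR duplicates and assigned unique alignments to exons by featureCounts. The deposited table holds raw counts per gene and the gene length. Groups, replicates, donors and library numbers were read from the labels. The same donor tag in the low and the high run of library numbers was taken to name different donors, which gives the 5 activated donors of the record and pairs 3 media with 3 lactate libraries. The pairs' deviations from the group means correlated at 0.374, 0.211 and 0.553.

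A gene was tested if it reached 1 CPM in at least 3 libraries (13 dropped). After TMM scaling, all 12 libraries entered 1 quasi-likelihood fit by group, without a block, in R 4.3.3 with edgeR 4.0.16, with limma 3.58.1 and DESeq2 1.42.0 as alternatives. Tests were two-sided, with Benjamini-Hochberg adjustment over 13767 genes and a threshold of 0.01. The standard error is the log2 fold change over the square root of F. TPM used the table's lengths. Coordinates and overlaps came from GENCODE M21. The pipeline was tested on simulated data. Replicate libraries differed beyond sampling noise, so all 12 were kept apart.

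The members and lists were chosen with earlier results of these data known. Named beyond the members were, in each list and for lactate against media and media against naïve, the called gene with the largest and the smallest log2 fold change, with at least 5 CPM in either group, and the 2 genes most like each member. A gene selected by this rule is not reported here. Alternatives covered tests, scalings, filters, blocks, library run and each library left out. The fit with the donor as a block used the activated libraries only, so it also left out the naïve ones. Media replicate 2 and lactate replicate 3 had no partner from the same donor. Counting error alone is small for the members at these depths, but not for Hdac9, Mef2c and Cecr2 where they had few reads. The p-values measure the spread between libraries.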

Additional observations from a re-analysis of the deposited data

Results flagged for a closer look

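Among 39 groups of 4 libraries tested for a library far from the others, 3 passed Dixon's 95% critical value for groups of 4, and chance flags about 1 group in 20. Ep300 was at 219 CPM in media replicate 2, where the next library was at 178 CPM (gap over range 0.875). Hdac3 was at 105 CPM in lactate replicate 4, against 97.9 CPM in the next (0.955). Sirt3 was at 15.6 CPM in lactate replicate 2, the lowest of its group, against 17.4 CPM in the next (0.849).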

How the results depend on the processing

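Of 730 values of single members under alternative settings, 680 kept both direction and side of the threshold, 30 passed it newly, 20 lost it, and 0 changed direction. The members called lower with lactate than in media, 1 in the main analysis, numbered 3 with the likelihood ratio test, DESeq2, a fit of the 2 groups alone or an adjusted p of at most 0.05; 2 with upper quartile scaling, total counts, at least 10 counts in every library, a term for the library run or the replicate block by donor; and 0 with limma voom or the replicate block by title number. Leaving out 1 library gave 0 to 3: 3 without naïve replicate 4, 2 without naïve replicate 2, naïve replicate 3 or media replicate 1, and 0 without media replicate 2, media replicate 4 or any 1 lactate library. The members called higher numbered 2 with DESeq2 or at 0.05, and 1 to 3 when 1 library was left out, with 3 without naïve replicate 4. Calls over all tested genes moved too. Genes called lower with lactate than in media numbered 1534 in the main analysis and 2604 at 0.05. They numbered 1999 with the likelihood ratio test, 2307 with DESeq2 and 1477 with limma voom. Leaving out 1 library gave 914 to 2293 genes lower and 1338 to 2552 higher. At 0.05, bromodomain readers called between lactate and media numbered 20 (13 at 0.01), HDAC1 and HDAC2 complexes 14 (9) and other acetyltransferases 8 (4). The Hdac1 to Hdac2 log2 ratio differed by −0.47 within the high run, against −0.30 over all libraries. The causes of these shifts were not tested. Without naïve replicate 4, chosen for this after the data had been seen, other acetyltransferases called between lactate and media numbered 8 in place of 4, and genes called lower there numbered 7 in place of 4 for both the HDAC1 and HDAC2 complexes and the HDAC3 and class IIa partners, and 4 in place of 2 for SAGA and ATAC. Libraries that share a title number correlated in their deviations at 0.374, 0.297, 0.0038 and 0.553.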
